A study of Mus musculus with 3 samples.

Results

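The 45 genes described here encode the machinery that copies nuclear DNA, and they were taken by symbol from the 35562 genes that the deposited transcripts of 3 mouse myoblast libraries cover. They fall into 15 genes of origin licensing, 26 of the replisome and 4 of nucleotide supply, and every one of the 45 symbols was found. Lines 66, 67 and 72 are cultured, FACS-purified myoblasts, the dividing progeny of satellite cells, and carry the genotype Dmd-mdx; Pax7-nGFP after CRISPR/Cas9 editing of the mdx mutation. They came from chimeras of mouse with mouse, in which edited iPSCs of that genotype, checked for editing in 1 clone, had been put into blastocysts whose own satellite cells can be ablated by tamoxifen through Pax7-Cre/ERT2 and Rosa26-lsl-DTA. The labels give neither the tamoxifen treatment, the chimera, nor the age of the animal behind each line, so the libraries form 1 condition of 3 lines. Each line was sequenced as 1 library. A difference between lines therefore has no replicate check, and no p-value is given.

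DNA replication begins in G1 phase, when the origin recognition complex, with Cdc6 and Cdt1, loads the MCM helicase onto DNA as an inactive ring. In S phase, Cdc45 and the GINS complex join the ring to make the active helicase, polymerases copy the strands behind it, and a clamp loaded by replication factor C holds the polymerases on DNA. The deoxynucleotides come from ribonucleotide reductase, thymidylate synthase and thymidine kinase. In muscle, satellite cells at rest do not replicate their DNA, myoblasts do, and the withdrawal from the cell cycle that precedes fusion into fibers brings most of these genes down. Many of them are transcribed from promoters bound by E2F factors, which the retinoblastoma family holds in check.

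Levels are given in TPM, the estimated count of a transcript divided by its effective length and scaled to 1000000 per library, summed here over the transcripts of a gene. The libraries held 66972426 to 73274315 estimated counts. Of the 6 myoblast markers, all averaged 10 TPM or more, with summed levels of 1977, 1902 and 1809 TPM in lines 66, 67 and 72, where Myod1 was the highest (791, 702 and 579 TPM) and Myf5 the lowest (97.2, 118 and 113 TPM). The 8 fibroblast markers summed to 157, 239 and 311 TPM, most of it Col3a1 (145, 205 and 269.8 TPM), while Lum and Dpt were at a count of 0, which allows up to 3 counts, in every library. Col1a2 stood at 7.47, 28.3 and 37.00 TPM, and Thy1 at 3.51, 5.80 and 3.26 TPM. The 6 endothelial markers summed to at most 1.93 TPM and the 6 immune markers to at most 4.47 TPM in a line, with Adgre1 and Cd52 at a count of 0 in every library. The background for each count given here is formed by 8428 genes that averaged 10 TPM or more over the lines. Their median log2 ratio, line against others, was -0.05, -0.01 and 0.06 in lines 66, 67 and 72. Ratios are reported relative to these medians.

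All 45 replication genes were above the median of the 25510 genes detected in any line, and 43 averaged 10 TPM or more. The exceptions were Orc1 and Gins3, with means of 8.48 and 7.09 TPM. The 45 genes together took up 2631, 3335 and 3263 TPM, or 0.305%, 0.384% and 0.360% of the estimated counts, in lines 66, 67 and 72. Their median level on the log2(TPM + 1) scale was 5.20, 5.49 and 5.48 in these lines, with a mean of 5.39 ± 0.16 (SD, n = 3). By the same measure nucleotide supply stood highest at 7.14 ± 0.22, origin licensing followed at 6.003 ± 0.174, and the replisome was lowest at 5.08 ± 0.08 (SD, n = 3 each). Means above 100 TPM were found in 7 genes. In order they were Rrm2, Pcna, Rrm1, Mcm7, Rpa1, Tyms and Mcm6. Several neighbours in this order lay within 1 SD of each other, among them Rrm2 and Pcna, Rrm1 and Mcm7, and the last 3. The SD is taken across lines, and within each line Rrm2 exceeded Pcna, by 1.14-fold, 1.68-fold and 1.30-fold in lines 66, 67 and 72. The counts behind these levels ranged from 543 to 44507 per gene and library, so that counting error alone amounted to between 0.474% and 4.29% of a gene's count. The error of a TPM can be larger where a short transcript with few counts holds much of it. In line 66, for example, Orc1-203 held 37.2% of the TPM of Orc1 from 59.8 estimated counts.

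**Figure D1:**
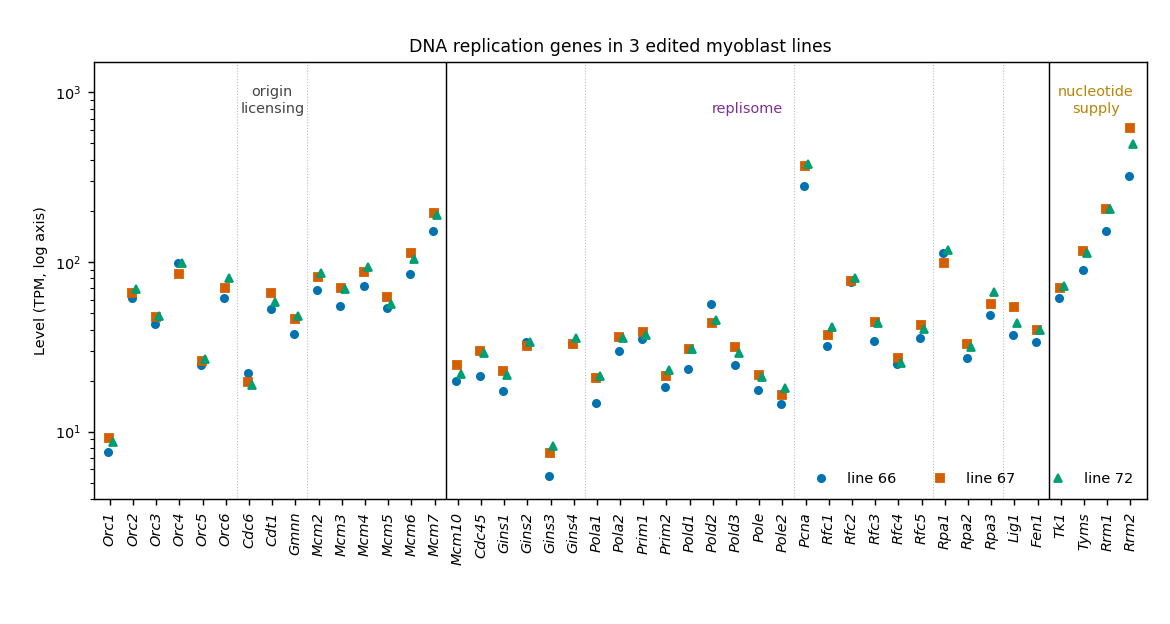
TPM (log axis) of each of the 45 DNA replication genes in line 66 (circles), line 67 (squares) and line 72 (triangles), 1 library a line, ordered by role. Rrm2 and Pcna stand at the top, Orc1 and Gins3 below 10 TPM, and the circles of line 66 lie lowest for 40 genes.

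The lines were then set against each other. Of the 45 genes, 40 were lowest in line 66, where 47.7% of the 8428 background genes were. The 5 exceptions were Orc4, Gins2, Pold2 and Rpa1, lowest in line 67, where 32.7% of background genes were lowest, and Cdc6, the only member lowest in line 72 (19.6% of background genes). Which genes were exceptions depended on the transcripts and scaling. With protein-coding transcripts alone 40 were again lowest in line 66 (45.9% of background genes), but Gins2 was among them, Rfc2 was not, and Orc4, Cdc6, Pold2 and Rfc2 were lowest in line 72. With CPM 40 were lowest in line 66 (44.8% of background genes), and with TMM scaling or DESeq2's size factors 38 were (39.6% and 40.2%). Cdc6, Pold2 and Orc4 were highest in line 66, as were 28.1% of background genes. The remaining genes were divided over the other lines, with 22 highest in line 67 (26.2% of background genes) and 20 highest in line 72 (45.7%). The differences were small. Only 1 of the 45 was over 1.5-fold apart in any pair of lines, against 9.03% of background genes. That was Rrm2, more than 1.5-fold higher in line 67 than in line 66 (2.72% of background genes) and in line 72 than in line 66 (3.13%), where folds are ratios of TPM + 1. No member passed 1.5-fold in the opposite directions or between lines 67 and 72, where 2.44% (line 66 over 67), 2.05% (66 over 72), 1.59% (67 over 72) and 1.73% (72 over 67) of background genes did. At 2-fold no member was called in any direction, against 0.759% of background genes for line 66 over 67, 0.712% for 66 over 72, 0.427% for 67 over 66, 0.392% for 67 over 72, 0.593% for 72 over 66 and 0.475% for 72 over 67. By more than 25%, 15 members were higher in line 67 than in line 66 (10.1% of background genes) and 15 were higher in line 72 than in line 66 (13.2%). Pold2 alone was over 25% higher in line 66 than in line 67 (9.44%), and no member was for line 66 over line 72 (7.9%), line 67 over line 72 (4.56%) or line 72 over line 67 (6.72%).

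Each gene was also given a relative ratio, the log2 of TPM + 1 in a line over the geometric mean of the other lines, less the background median. Over the 45 members the median of this ratio was -0.21, 0.15 and 0.06 for lines 66, 67 and 72. Nucleotide supply was furthest from 0 in line 66, at -0.33, against -0.20 for the replisome and -0.16 for origin licensing. Line 67 gave 0.21, 0.15 and 0.11 for the same 3 roles, and line 72 gave 0.09, 0.05 and 0.04. The positive values of line 72 rested on line 66, without which they were -0.06, -0.05 and -0.03, with line 67 at 0.06, 0.05 and 0.03. The ratios of the 3 lines share the same libraries and are not independent, and nucleotide supply rests on 4 genes. The pair of lines 67 and 72 was close: the median size of the difference, whatever its direction, was 1.05-fold over the members and 1.08-fold over background genes, and the largest was 1.24-fold. Between lines 66 and 67 it was 1.20-fold for the members and 1.11-fold for background genes, and between lines 66 and 72 it was 1.20-fold and 1.12-fold. The median coefficient of variation across the 3 lines was 11.6% for the members and 8.74% for background genes, which 33 of the 45 exceeded. With line 66 left out it was 3.50% for the members and 5.60% for background genes.

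**Figure D2:**
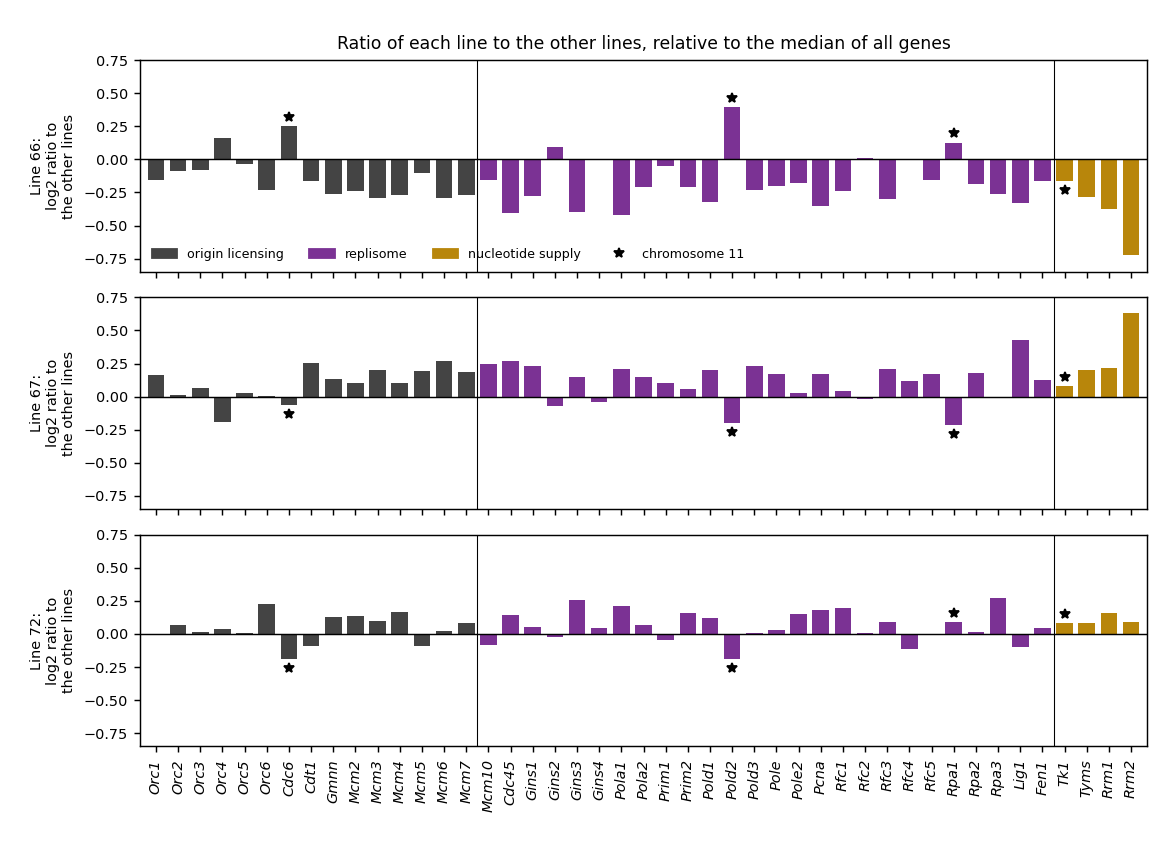
Log2 ratio of each line to the other lines for the 45 genes, relative to the median of the 8428 background genes, with 1 panel a line and bars coloured by role. In line 66, 39 bars point down, Rrm2 furthest at -0.72, where 4214 of the 8428 background genes lie below 0 because ratios are set to their median. Cdc6, Pold2 and Rpa1 on chromosome 11 (stars) point up, as do Orc4, Gins2 and Rfc2 on other chromosomes, while Tk1 on chromosome 11 points down.

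Some of these ratios followed the chromosome on which a gene lies. On chromosome 11, the background genes had a median relative log2 ratio of 0.32 in line 66, and on chromosome 10 of 0.28, and on chromosome 6 the median was 0.15 in line 72. The chromosome 11 members are Cdc6, Pold2, Rpa1 and Tk1, with ratios of 0.25, 0.39, 0.13 (0.03 to 0.23 with another line left out) and -0.16 in line 66. Set against the genes of their own chromosome instead, they stood at -0.07, 0.07, -0.20 and -0.48. On that scale 39 of the 45 members were below 0 in line 66 (49.9% of background genes), with a median of -0.20. Outside chromosomes 6, 10 and 11 there were 38 members, of which 36 were lowest in line 66 (53.5% of background genes there), with a median relative ratio of -0.22. The number of copies of these chromosomes in each line was not tested.

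Promoters were examined because so many members lay to the same side in line 66. RefSeq gave the sequence from 250 bases before to 50 after the start site for 37 of the 45 genes, on GRCm38.p6, and Gins1, Gins2, Gins4, Gmnn, Mcm4, Pole, Prim2 and Rfc2 had none. E2F letters, searched on both strands as TTTCCCGC, TTTGCCGC, TTTCGCGC or TTTGGCGC, were present in 14 of the 37 (37.8%). They were present in 2.32% of all 27025 RefSeq promoters of that length and in 4.50% of the 6693 promoters of other genes of the background. The CCAAT box, searched on both strands as CCAAT, was in 22 of 37 (59.5%), against 37.9% of all promoters and 39.2% of those other genes. The cell cycle homology region, searched on both strands as TTTGAA, was in 4 of 37 (10.8%), against 18.1% and 11.8%. E2F letters were found in 8 of 13 licensing promoters, 6 of 20 replisome promoters and none of the 4 nucleotide supply promoters. A match in this window is a description of the letters, not of binding.

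Stretches of 180 bases ending just before the start site are shown for 6 genes, 5 licensing genes with E2F letters before the start site, chosen after the matches were seen, and Rrm2 because its level differed most between lines. They are written 5′ to 3′ on the strand of the gene, from RefSeq on GRCm38.p6, with E2F letters and CCAAT boxes of either orientation in capitals.
Orc1 (chr4:108579274-108579453, plus strand): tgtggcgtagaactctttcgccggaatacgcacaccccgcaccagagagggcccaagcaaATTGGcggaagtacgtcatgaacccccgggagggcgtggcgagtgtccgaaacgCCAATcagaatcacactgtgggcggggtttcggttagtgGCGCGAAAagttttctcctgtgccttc
Cdc6 (chr11:98907971-98908150, plus strand): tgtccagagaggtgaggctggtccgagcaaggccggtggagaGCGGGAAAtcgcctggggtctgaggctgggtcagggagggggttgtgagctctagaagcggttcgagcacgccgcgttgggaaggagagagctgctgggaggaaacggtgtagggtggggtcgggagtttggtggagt
Mcm5 (chr8:75109329-75109508, plus strand): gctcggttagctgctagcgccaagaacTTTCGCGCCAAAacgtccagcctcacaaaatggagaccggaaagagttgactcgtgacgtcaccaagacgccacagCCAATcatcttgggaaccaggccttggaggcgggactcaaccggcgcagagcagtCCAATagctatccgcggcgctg
Mcm6 (chr1:128359706-128359885, minus strand): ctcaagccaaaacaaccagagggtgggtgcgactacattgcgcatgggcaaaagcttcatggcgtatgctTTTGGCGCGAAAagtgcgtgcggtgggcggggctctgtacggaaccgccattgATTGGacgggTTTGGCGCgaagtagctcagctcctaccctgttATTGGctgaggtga
Mcm7 (chr5:138171884-138172063, minus strand): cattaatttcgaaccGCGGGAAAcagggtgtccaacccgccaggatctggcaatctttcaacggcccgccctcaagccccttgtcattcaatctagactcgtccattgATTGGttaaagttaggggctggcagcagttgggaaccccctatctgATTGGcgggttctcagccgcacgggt
Rrm2 (chr12:24708074-24708253, plus strand): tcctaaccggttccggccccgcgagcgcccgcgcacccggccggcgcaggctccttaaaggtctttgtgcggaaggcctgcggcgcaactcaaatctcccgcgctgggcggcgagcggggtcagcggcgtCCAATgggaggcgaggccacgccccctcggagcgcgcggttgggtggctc

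Mcm5 held an overlapping pair of E2F words on opposite strands, starting 153 and 149 bases before the start site, and Mcm6 held a like pair starting at 110 and 106 bases with a further word at 47. The stretches of Orc1, Mcm5, Mcm6 and Mcm7 held both motifs. The CCAAT boxes upstream of the start site began 77 and 22 bases before it in Mcm5 and 57 and 14 bases before it in Mcm6. In Orc1 the E2F letters began 27 bases and the CCAAT boxes 66 and 120 bases before the start site, and in Mcm7 the E2F letters began 165 bases and the CCAAT boxes 72 and 26 bases before it. Cdc6 had E2F letters starting 138 bases before the start and no CCAAT box. Rrm2 had 1 CCAAT box, starting 50 bases before the start site, and none of the E2F letters. Over the 37 promoters there were 20 E2F words, 12 of them before the start site, and 42 CCAAT boxes, of which 30 began within 150 bases before it. An E2F word overlapped another motif in 1 case, a CCAAT box of Mcm7. Both motifs were found in 8 promoters and neither in 9. The 14 genes with E2F letters had a median relative ratio of -0.25 in line 66 (13 below 0), and the 23 without had -0.19 (20 below 0), over ranges that overlapped widely.

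**Figure D3:**
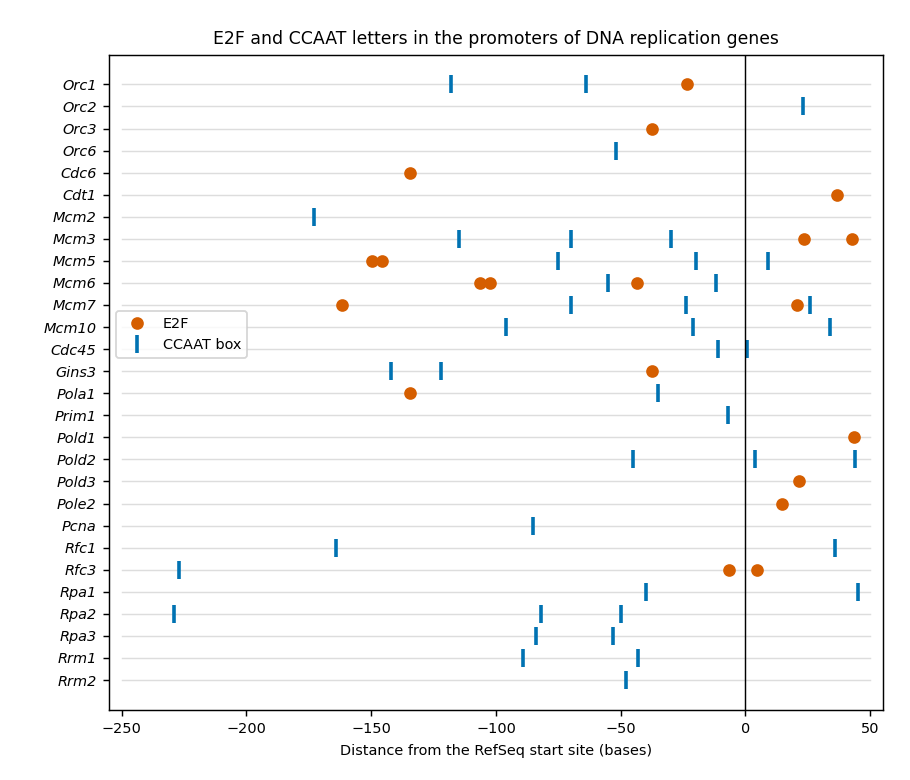
Positions of E2F letters (circles) and CCAAT boxes (bars) from 250 bases before to 50 bases after the RefSeq start site in the 28 of 37 promoters that hold either; the x axis is the distance from the start site in bases and each row is a gene. CCAAT boxes gather in the 150 bases before the start, and E2F letters lie on both sides of it.

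Among the genes of origin recognition, whose 6 products form the complex that marks origins, Orc4 was the highest and Orc1, the cell cycle-regulated ATPase subunit, the lowest in each line, 11.1-fold apart on average. Orc1 (chromosome 4, 108579423 to 108614833 on GRCm38) had 7.59, 9.15 and 8.70 TPM in lines 66, 67 and 72, the order in which all values for the 3 lines are given. Orc4 had 98.7, 85.4 and 98.3 TPM, with line 67 below the others, and 39.2, 31.9 and 30.2 TPM on protein-coding transcripts, with line 66 above the others. These subunits differed little between lines. Orc2 stood at 61.1, 65.4 and 69.4 TPM, Orc3 at 43.4, 47.6 and 47.99 TPM and Orc5 at 24.9, 26.2 and 26.9 TPM, and all were lowest in line 66 by a narrow margin. Orc6, the smallest subunit, spread furthest in this complex, with 61.7, 70.5 and 80.9 TPM. The median relative ratio in line 66 was -0.08 for the 6 genes.

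The loading factors were lowest in different lines. Cdc6 (chromosome 11, 98907801 to 98923940), the ATPase that closes the loading complex, had 22.2, 19.5 and 18.9 TPM and was highest in line 66. Cdt1, which brings the MCM ring to the origin, had 53.1, 65.95 and 57.98 TPM, highest in line 67. Geminin, encoded by Gmnn, binds Cdt1 and blocks a further round of loading, and had 37.7, 46.4 and 47.9 TPM, lowest in line 66. The ratio of Cdt1 to Gmnn was accordingly 1.41 and 1.42 in lines 66 and 67 and 1.21 in line 72.

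All 6 MCM genes, which encode the subunits of the replicative helicase, were lowest in line 66, where 47.7% of background genes were. Mcm2 had 68.4, 81.97 and 85.8 TPM, Mcm3 54.98, 70.7 and 69.6 TPM and Mcm4 71.9, 87.3 and 92.98 TPM. Mcm5 had 53.2, 62.5 and 56.4 TPM and Mcm6 had 85.4, 113 and 104 TPM. Mcm7 (chromosome 5, 138164583 to 138172422) was the most abundant in each line, with 153, 193 and 189.7 TPM. The subunits are present in equal numbers in the ring, whereas their summed transcript levels differed by 3.11-fold between Mcm7 and Mcm5, the lowest in each line. The median relative ratio of the 6 was -0.27, 0.19 and 0.09.

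Helicase activation genes were lower in level than the MCM genes. Cdc45, which joins the MCM ring, had 21.1, 29.9 and 29.1 TPM, and line 66 lay apart from the other lines, with a relative ratio of -0.41. Mcm10, which promotes the firing of the loaded helicase, had 19.9, 24.8 and 21.8 TPM. In the GINS complex, Gins1 had 17.3, 22.7 and 21.5 TPM and Gins3 5.49, 7.53 and 8.25 TPM, both lowest in line 66. Gins4 had 32.8, 32.96 and 35.5 TPM. Gins2 had 33.9, 32.04 and 33.9 TPM, but most of this lay on transcripts not annotated as protein-coding, and the protein-coding one had 4.37, 5.47 and 5.57 TPM, lowest in line 66. The 4 subunits of GINS were 4.76-fold apart between Gins4 and Gins3.

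In the polymerase group, 8 of 9 genes were lowest in line 66, where 47.7% of background genes were. Pola1, the catalytic subunit of DNA polymerase alpha, which extends the primer, had 14.8, 20.6 and 21.3 TPM and a relative ratio of -0.42 in line 66. Its partner Pola2 had 29.8, 36.03 and 35.9 TPM, and the primase subunits Prim1 and Prim2 had 35.1, 38.5 and 37.1 TPM and 18.4, 21.4 and 23.2 TPM. Prim1 lies on chromosome 10, whose genes stood higher in line 66. For DNA polymerase delta, which copies the lagging strand, Pold1 (catalytic) had 23.4, 30.8 and 30.7 TPM and Pold3 24.6, 31.4 and 29.2 TPM. Pold2 (chromosome 11, 5872180 to 5878292) went the other way with 56.7, 43.8 and 45.5 TPM, highest in line 66, and its ratio of 0.39 there compares with 0.32 for all background genes of chromosome 11. For DNA polymerase epsilon, which copies the leading strand, Pole had 17.6, 21.6 and 20.9 TPM and Pole2 14.5, 16.4 and 17.96 TPM. Subunit levels within these complexes were 1.95-fold apart for polymerase alpha with primase, 1.72-fold for polymerase delta and 1.23-fold for polymerase epsilon.

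Pcna (chromosome 2, 132249162 to 132253314), the sliding clamp and a common marker of dividing cells, had 281, 366 and 380.4 TPM, with a mean of 342 ± 53.5 TPM (SD, n = 3) and a relative ratio of -0.35 in line 66. The clamp loader stood at a lower level. Its large subunit Rfc1 had 31.9, 37.2 and 41.4 TPM, Rfc3 had 34.3, 44.6 and 43.6 TPM and Rfc5 had 35.7, 42.5 and 40.4 TPM. Rfc4 and Rfc2 were nearly level over the lines, at 25.1, 27.2 and 25.2 TPM and 76.4, 76.9 and 80.6 TPM. Pcna exceeded Rfc1 by 8.82-fold, 9.83-fold and 9.18-fold in the 3 lines. Of the single-stranded DNA binding genes, Rpa1 had 113, 98.2 and 117 TPM, Rpa2 27.2, 33.1 and 31.7 TPM and Rpa3 48.8, 56.3 and 66.2 TPM, and line 66 was lowest for Rpa2 and Rpa3. On the lagging strand, Lig1, which seals the joins between Okazaki fragments, had 37.3, 54.5 and 43.9 TPM, and Fen1, the flap endonuclease, had 33.97, 39.8 and 39.7 TPM. Lig1 was 1.45-fold higher in line 67 than in line 66, near the 1.43-fold of Gins3 for line 72 over line 66, and without the added 1 TPM these folds were 1.463 and 1.503.

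Nucleotide supply held the gene that differed most between lines. Rrm2 (chromosome 12, 24708241 to 24714146), the small subunit of ribonucleotide reductase that limits its activity in S phase, had 321, 614 and 494 TPM, with a mean of 476 ± 147 TPM (SD, n = 3). It was the most abundant member in each line and the most variable, with a coefficient of variation of 30.9%. Line 67 exceeded line 66 by 1.91-fold and line 72 exceeded line 66 by 1.54-fold. The latter was below 1.5-fold when estimated counts were scaled to the library instead of using TPM. The large subunit Rrm1 had 151, 204 and 205 TPM, so that the ratio of Rrm2 to Rrm1 was 2.12, 3.01 and 2.41. Tyms, which makes thymidylate, had 90.2, 116 and 113 TPM, and Tk1, the cytosolic thymidine kinase, had 61.2, 69.8 and 72.4 TPM. On protein-coding transcripts Tyms had 27.7, 29.3 and 30.4 TPM, and its relative ratio in line 66 was -0.06 in place of -0.29. All 4 were lowest in line 66 (47.7% of background genes).

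A gene's TPM here sums transcripts that encode the protein and transcripts that do not. In 24 members over 90% of the TPM lay on transcripts annotated as protein-coding, in 17 between 50% and 90%, and in 4 less. Those 4 were Rfc2 (3.44% on average), Gins2 (15.5%), Tyms (27.6%) and Orc4 (35.9%). Rfc2 therefore stood at 78.0 TPM with all transcripts and 2.68 TPM with the protein-coding one, which held 21.1% of its counts. The other transcripts are shorter, and a given count on a short transcript is worth more TPM. The most abundant of them was Rfc2-204, a retained-intron transcript of 831 bases with 41.6%, 42.7% and 42.7% of the gene's TPM. For Gins2 the protein-coding level was 5.14 TPM, with 66.7% of counts. Tyms kept 29.1 TPM and Orc4 33.8 TPM. In Pcna, a processed transcript of 589 bases, Pcna-203, took 40.7%, 42.1% and 48.2% of the TPM and left a mean of 188 TPM to the protein-coding one. Mcm2-203, of 273 bases, added 12.5, 17.2 and 16.1 TPM from 58.5, 73.3 and 70.5 estimated counts. Such short transcripts bear on the order of subunits. With protein-coding transcripts alone, Rfc2 was the lowest of the clamp loader in place of the highest, Gins2 the lowest of GINS, and Orc2 the highest of the origin recognition complex on average, while Mcm7 and Mcm5 kept their places. How far reads were assigned to the right transcript was not tested.

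**Figure D4:**
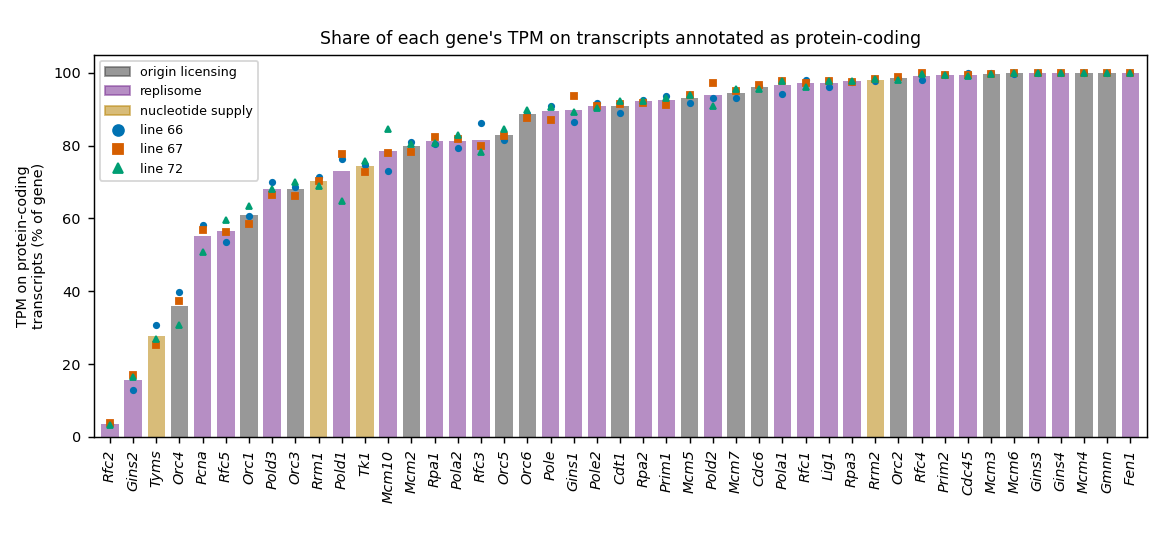
Share of each member's TPM on transcripts annotated as protein-coding, in percent: bars give the mean of the 3 lines, coloured by role, and the points are the lines. Rfc2, Gins2, Tyms and Orc4 lie below 50%, and 24 genes lie above 90%.

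Isoform shares differed between lines for a few members, which are given as examples without a background share. Rrm2-204, a short protein-coding transcript of Rrm2, took 2.95%, 9.14% and 12.6% of the gene's TPM, and Pold1-209, a retained-intron transcript, 3.92%, 10.1% and 16.7%. The protein-coding Mcm10-201 held 64.3%, 69.0% and 77.4% of Mcm10, and Orc4-212, a processed transcript, 24.1%, 33.9% and 39.6% of Orc4. These shares are estimates from reads split between transcripts and have no replicate. The counts behind Pold1-209 were 16.7, 51.2 and 85.

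Other genes of the same processes were read from lists of factors that are not members. The 30 other replication factors, from helicase loading and firing factors to chromatin assembly, had median relative ratios of -0.17, 0.16 and 0.01 and 22 of 30 lowest in line 66 (47.7% of background genes). Top2a, the topoisomerase that untangles replicated DNA, was the highest (156, 193 and 184 TPM) and Mcm9 the lowest (5.18, 4.30 and 3.60 TPM). Only Mtbp, a partner of the firing factor Ticrr, passed 1.5-fold in a pair of lines (24.98, 38.2 and 34.8 TPM), against 9.03% of background genes. The 12 other nucleotide enzymes lay near 0, at -0.05, 0.01 and 0.07, with 6 of 12 lowest in line 66, a share near the background, and none past 1.5-fold, where Nme1 was the highest (491, 391 and 387 TPM) and Tk2, the mitochondrial thymidine kinase, the lowest (10.5, 10.2 and 10.03 TPM).

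The 12 S phase regulators had medians of -0.22, 0.18 and 0.00, with 8 of 12 lowest in line 66 (47.7% of background genes). Of these 12, 2 were past 1.5-fold (9.03% of background genes), namely Ccna2, the cyclin of S phase and G2 (96.9, 154 and 154 TPM), and Ccne1, the cyclin of the entry into S phase (70.1, 92.8 and 114 TPM). Cdkn1a, the CDK inhibitor p21 that rises on cell cycle exit, was the highest of this list and had 364, 452 and 497 TPM, also lowest in line 66, and E2f7 was the lowest at 13.7, 11.5 and 12.2 TPM. The 12 mitosis genes had medians of -0.34, 0.25 and 0.12, further from 0 than the members. Of these 12, 11 were lowest in line 66 (47.7% of background genes) and 5 were past 1.5-fold (9.03% of background genes). These were Kif11 (25.3, 48.3 and 45.4 TPM), Mki67 (35.6, 64.1 and 54.3 TPM), Bub1b (43.00, 74.4 and 74.7 TPM), Aurka (39.3, 56.2 and 63.8 TPM) and Ccnb1 (75.9, 118 and 115 TPM). Kif11 was also the lowest of the list, and Cdk1 was the highest (148, 171 and 172 TPM).

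Genes of differentiated muscle were lower in line 66 too. All 12 were lowest there (47.7% of background genes), with medians of -0.66, 0.09 and 0.54 and summed levels of 2026, 2876 and 3536 TPM, and 11 of 12 passed 1.5-fold in a pair of lines, against 9.03% of background genes. Of these 12, 11 were in the order of line 66, then 67, then 72, an order found in 18 of the 45 replication genes and in 29.4% of background genes. Mylpf was the highest at 653, 816 and 1008 TPM and Ckm the lowest at 4.52, 6.88 and 9.30 TPM. Myog, the factor that starts differentiation, stood at 168, 222 and 310.4 TPM, and the embryonic myosin Myh3 at 204, 262 and 339 TPM. Acta1, Actc1, Mymk, Mymx, Myh8, Tnnc2 and Tnnt3 were also past 1.5-fold, with line 66 lowest in each. The study describes the sequenced myoblasts as FACS-purified, and reports that the Pax7-nGFP reporter goes down when such myoblasts become myotubes. Which cells the sort removed was not tested. The part of differentiating cells in the levels of the replication genes was not tested. In libraries of many cells, fewer cells in S phase and less RNA per cell cannot be told apart.

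**Figure D5:**
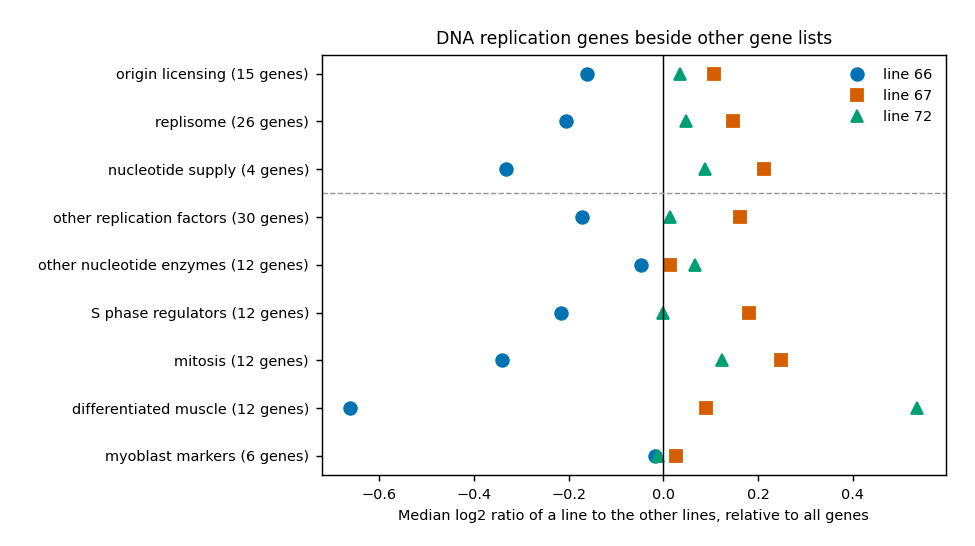
Median relative ratio (log2) of each line against the other lines for the 3 roles of the members (above the dashed line) and for 6 other lists, in line 66 (circles), line 67 (squares) and line 72 (triangles). Line 66 stands at -0.66 for differentiated muscle, and the medians of the 6 myoblast markers, whose members lie on both sides of 0, are -0.02, 0.03 and -0.01.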

How the data were processed

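RNA-seq libraries of 3 edited myoblast lines (66, 67 and 72), each 1 library of poly-A-enriched RNA, were used, with the line as the replicate of 1 condition. The authors deposited estimated counts, in which reads compatible with more than 1 transcript are shared out, and TPM values that sum to 1000000 per library, for 121798 transcripts. The submitters' processing notes name bcl2fastq 2.20, fastp 0.20, kallisto 0.46.1 and GRCm39, and the strand setting is not given in the sources used here. Libraries summed to 73274315 (line 66), 66972426 (line 67) and 70272367 (line 72) estimated counts. Counting errors given do not cover PCR copies, which are not independent molecules.

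Transcripts were matched by identifier to GENCODE M21 (GRCm38), which gave symbols and gene coordinates, and 1112 without a match (0.493% to 0.535% of counts) were left out. Values were summed per gene. Differences between lines used TPM + 1, folds of 1.5 and, as background, genes averaging 10 TPM or more. No test was made, since there is 1 condition and 1 library a line, and nothing in the labels says that the libraries were grown or prepared apart. Members and lists were chosen with earlier results of these data known. Every member could be named, and of other lists the highest and lowest gene by mean TPM and those past 1.5-fold in a pair of lines. Counting shares used the Poisson error of each count, and a count of at most 3 was taken as the limit of detection. The fold and median formulas were also run on simulated counts with planted 2-fold changes. That simulation held Poisson noise only, so it does not cover other differences between lines.

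The alternatives were CPM, edgeR's TMM scaling, DESeq2's size factors, protein-coding transcripts alone, a pseudocount of 0.1, other backgrounds, a difference of 25% or 2-fold in place of 1.5-fold, ratios relative to the same chromosome, and leaving out each line, and the counts of members lowest in a line were repeated over these scalings after the data were seen. For the scaling factors, estimated counts were rounded to whole numbers. Scaling factors came from DESeq2 1.42.0 and edgeR 4.0.16 under R 4.3.3, and the rest was done in Python 3.11.15 with pandas 2.3.3 and numpy 2.4.6, with figures by matplotlib 3.10.9.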

Additional observations from a re-analysis of the deposited data

How the results depend on the processing

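No paired analysis was possible because the 3 lines form 1 condition and are not paired with samples of another. The median level of the 45 genes (5.39) was 5.60 with CPM, TMM scaling or DESeq2's size factors, which do not correct for length, and 5.08 with protein-coding transcripts alone, and leaving out each line gave 5.34 to 5.48. Rrm2, the 1 member past 1.5-fold for line 72 over line 66, was not past it with CPM, TMM scaling, DESeq2's size factors or ratios relative to the same chromosome (0 members each), and its call for line 67 over line 66 was kept. At a difference of 25%, 15 members were higher in line 67 than in line 66, 15 in line 72 than in line 66 and 1 in line 66 than in line 67, and at 2-fold the count was 0 in each. The median ratio of line 66 over the members lay between -0.25 and -0.16 over 11 alternatives. With lines left out in turn it lay between -0.23 and -0.16 in line 66, between 0.05 and 0.23 in line 67 and between -0.05 and 0.16 in line 72, so the sign in line 72 rested on line 66. Without line 66 the median in line 72 was -0.06 for nucleotide supply and -0.03 for origin licensing. With lines left out in turn, the replisome gave 0.052 to 0.224 in line 67 and -0.052 to 0.157 in line 72. For line 66, leaving out line 67 or line 72 gave -0.36 to -0.30 for nucleotide supply. The replisome gave -0.22 to -0.16 there and origin licensing -0.21 to -0.10. The median coefficient of variation across lines was 3.50% to 13.3% with lines left out, the lowest without line 66. The counting error of a gene's summed count was at most 4.29%, in the gene with the fewest counts, Gins3 in line 66. It does not cover the larger weight that short transcripts with few counts have in TPM. The count of members lowest in a line under other scalings, an alternative added after the data were seen, was 38 to 40 for line 66.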
